A study of Mus musculus with 19 samples.

Results

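Translation initiation factors are the proteins that bring messenger RNA, initiator transfer RNA and the ribosomal subunits together. Their genes were taken from the array annotation as probe sets assigned to 1 gene whose symbol begins Eif1 to Eif6. The eIF2 gamma subunit genes on the sex chromosomes (Eif2s3x, Eif2s3y) and the eIF2 kinases (Eif2ak genes) were left out. Where a gene had several such probe sets, the one with the highest mean over all arrays stood for it, so no measured difference between groups entered the choice. This gave 43 of the 19938 genes measured, namely 13 of the cap-binding complex and its regulators, 6 of eIF2 and its exchange factor eIF2B, 11 of eIF3, 8 of eIF1, eIF5 and eIF6, and 5 others that share the symbol. Eif4g1 and Eif2s1 were not analysed here.

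In eukaryotic initiation, eIF2 with GTP carries the initiator transfer RNA to the small ribosomal subunit, which eIF1, eIF1A, eIF3 and eIF5 help to hold ready for the message. The cap-binding protein eIF4E, the scaffold eIF4G and the helicase eIF4A load the messenger RNA, and 4E-binding proteins hold eIF4E back until mTOR phosphorylates them. T cells are known to raise protein synthesis steeply when antigen activates them, and to lower it again as they return to rest.

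The study hybridised 0.125 µg of RNA per array, from purified CD8 T lymphocytes of mice, to 19 Affymetrix gene arrays. On 3 arrays the cells were T-BetKO, lacking the transcription factor T-bet, transduced with Stat5ca, an active form of Stat5, and recovered from congenic hosts at day 14 (2 arrays) or day 54 (1 array). The other 16 arrays carried cells of TCRP1A transgenic Rag-1-/- mice of B10.D2 background, whose T cells bear a transgenic receptor for the tumour antigen P1A. Their groups were cells transduced with Stat5ca and recovered from congenic hosts at day 20 (4 arrays), control effector cells recovered from hosts at day 18 or day 120 (2 arrays, 1 of each day), GFP+ Stat5ca cells at 72 h of activation (2 arrays), control effector cells at 72 h (4 arrays) and naive cells (4 arrays). The T-BetKO arrays differ from the TCRP1A Stat5ca arrays in more than T-bet: their labels give C57BL/6 as strain beside the B10.D2 background, spleen and lymph nodes as tissue, another labelling protocol and RNA integrity numbers of 6 to 8, and the series text gives anti-CD3 and anti-CD28 in place of antigen. The control cells are not labelled as transduced, so transduction and Stat5ca cannot be told apart. Whether replicate arrays come from different animals is not labelled, and the p-values cover no more than array-to-array spread within these groups. In such bulk samples, fewer cells of a type and less RNA per cell cannot be told apart.

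The labels were first checked against 2 genes. Stat5a lay between 11.54 and 12.12 on the 6 TCRP1A Stat5ca arrays, between 10.86 and 11.06 on the T-BetKO arrays and between 10.03 and 10.62 on the 10 arrays without Stat5ca. Tbx21, which encodes T-bet, was at 8.18 to 8.34 on the T-BetKO arrays, against 11.77 to 11.97 on the TCRP1A Stat5ca arrays after transfer. All values here are log2 signals as deposited, and 7.32, the level under which 95% of olfactory and vomeronasal receptor genes lay, served as a guide to background. The 15 myeloid markers measured (macrophage and dendritic cell genes such as Lyz2 and C1qa) averaged 10.59 to 12.16 on the T-BetKO arrays, 9.62 to 10.51 on the Stat5ca transfer arrays, 12.12 to 12.25 on the control transfer arrays, 7.00 to 7.08 on the Stat5ca arrays at 72 h, 7.91 to 8.63 on the control arrays at 72 h and 7.77 to 11.64 on the naive arrays. Naive arrays 34 and 36 averaged 11.64 and 11.50 for these markers, and naive arrays 33 and 35 averaged 7.77 and 8.59. The 11 T-cell genes measured averaged 12.46 to 12.50 on the Stat5ca transfer arrays and 11.74 to 11.93 on the control transfer arrays, so T-cell genes also moved with that comparison. Of the 6 B-cell markers measured, Ms4a1 and Cd79a had group means under the background guide in all 6 groups, while Cd79b (9.78 to 10.90) and Ighm (7.41 to 7.86) were above it in all. Blnk averaged 9.40 and Cd22 8.59 after control transfer, against 6.57 and 7.29 in control cells at 72 h. Cd4 averaged 9.51 after control transfer. Alas2, the 1 erythroid marker measured, read 8.93 on 1 control transfer array and 13.62 on the other. On the Stat5ca transfer arrays it read 8.65 to 11.44. Of the 2 NK-cell markers, Klrb1c averaged 11.13 in Stat5ca and 7.735 in control cells after transfer, and Ncr1 9.06 and 9.34. The part of these other cells in the results below was not tested beyond refitting with the myeloid level as a covariate.

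The initiation factor genes as a set were at their highest level 72 h after activation. Averaged over the 43 genes, the log2 signal was 10.59 to 10.70 on the 3 T-BetKO arrays, 10.82 to 10.88 on the 4 Stat5ca transfer arrays, 10.48 and 10.49 on the 2 control transfer arrays, 10.93 and 10.94 on the 2 Stat5ca arrays at 72 h, 10.91 to 10.99 on the 4 control arrays at 72 h and 10.45 to 10.66 on the 4 naive arrays. The Stat5ca transfer arrays therefore lay below all 72 h arrays and above all control transfer, naive and T-BetKO arrays. By gene, the highest of the 6 group means was that of the control cells at 72 h for 15 genes, of the Stat5ca cells at 72 h for 13 and of the Stat5ca cells after transfer for 10. The lowest was that of the control cells after transfer for 24 genes and of the naive cells for 9. Eif4a3l1, at 5.83 over all arrays, was the only one of the 43 genes under the background guide.

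**Figure D1:**
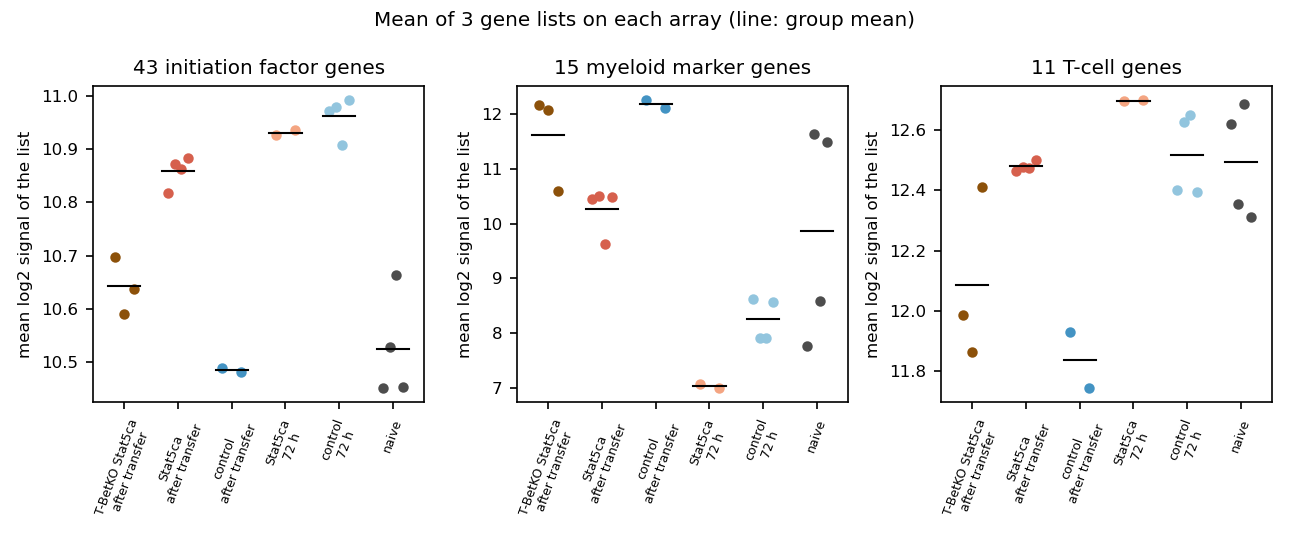
Mean log2 signal on each of the 19 arrays of the 43 initiation factor genes (left), the 15 myeloid markers (middle) and the 11 T-cell genes (right), by group, with a line at each group mean. The 2 control transfer arrays have T-cell means of 11.74 and 11.93 and myeloid means of 12.12 and 12.25, which overlap those of the T-BetKO arrays, and their initiation factor means are 10.48 and 10.49.

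Most initiation factor genes were higher after 72 h of activation. Between control cells at 72 h and naive cells, 31 of the 43 rose and 4 fell by limma with Benjamini-Hochberg adjustment over all genes (adjusted p under 0.05, as everywhere below), where 22.0% of all genes rose and 24.9% fell. The median log2 change of the 43 genes was 0.47, against -0.09 for all 19938 genes. Among the 12800 genes above the background guide, 32.3% rose and 23.8% fell. Of the 15 myeloid markers 10 were lower at 72 h, and of the 11 T-cell genes 2 were higher and 3 lower.

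All 11 eIF3 subunit genes rose at 72 h, with log2 changes of 0.40 to 0.92. Eif3d, whose product is a cap-contacting subunit of eIF3, read 11.88, 12.35, 12.32 and 11.91 on the control arrays at 72 h, against 11.20, 11.09, 11.47 and 10.996 on the naive arrays. Each array at 72 h was above each naive array. Its log2 change was 0.92 ± 0.13 (standard error, 4 arrays a group, adjusted p = 3.61e-05).

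Of the 6 eIF2 and eIF2B genes, 5 rose and Eif2b3 did not pass the test (0.03). Eif2s2, which encodes the beta subunit of eIF2, had the largest rise of the 43. Its signals were 10.93, 11.31, 11.21 and 11.03 at 72 h and 9.51, 10.07, 10.21 and 9.33 in naive cells, again without overlap. The log2 change was 1.34 ± 0.16, or 2.54-fold (adjusted p = 1.02e-05). Its dimmer probe set changed by 0.48. Among the eIF2B subunits, which reload eIF2 with GTP, Eif2b1 rose by 0.85 ± 0.10 and Eif2b4 by 0.75 ± 0.08.

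The cap-binding group was mixed, with 7 of 13 genes higher and 3 lower. Eif4ebp1, an inhibitor of eIF4E, rose by 0.97 ± 0.15 (adjusted p = 9.43e-05), while its relative Eif4ebp2 changed by 0.12 and did not pass the test. Eif4ebp1 read 10.90, 11.17, 11.04 and 10.51 at 72 h, against 9.74, 10.18, 9.58 and 10.23 in naive cells. Eif4e rose by 0.84 ± 0.09 on its brightest probe set, but the other probe sets of the gene changed by -0.11 and -0.22, so its direction depends on the probe set. Of the eIF4A helicase genes, Eif4a2 fell by 0.42 on the log2 scale (standard error 0.12, adjusted p = 0.00992), and Eif4a1 changed by 0.16 without passing the test, with 0.17 and 0.21 on its other probe sets. The gap between Eif4a1 and Eif4a2 within each array changed by 0.58, with an exact two-sided permutation p of 0.0571 (0.114 adjusted over the 12 paralog comparisons made), so a difference between the paralogs was not shown. Eif4g3, an eIF4G scaffold gene, fell by 0.35 on the log2 scale and Eif4e1b, a relative of eIF4E known from oocytes, fell by 0.37 on its brighter probe set. The other Eif4e1b probe set changed by 0.10, and the mean of its probe sets (-0.13) was not called.

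Among the genes of eIF1, eIF5 and eIF6, 4 of 8 rose and 1 fell. Eif1ax, which encodes eIF1A from the X chromosome, read 10.86, 10.68, 10.59 and 10.97 at 72 h and 9.46, 9.63, 9.91 and 9.60 in naive cells. The groups did not overlap and the log2 change was 1.12 ± 0.10 (adjusted p = 3.81e-07). Its paralog Eif1a changed by -0.23 without passing the test. The gap between Eif1ax and Eif1a within each array widened by 1.36, with an exact two-sided permutation p of 0.0286, the smallest that 4 against 4 arrays allow (0.0686 adjusted over the 12 paralog comparisons made). Eif5, which encodes the GTPase-activating protein of eIF2, went the other way: 11.67, 11.22, 11.25 and 11.67 at 72 h, against 12.07, 12.15, 12.01 and 12.16 in naive cells, a log2 change of -0.64 ± 0.13 (adjusted p = 0.0011). Eif5a rose by 0.38 ± 0.12 on its brighter probe set and changed by -0.01 on the other, and Eif6 changed by 0.29 without passing the test (adjusted p = 0.059).

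Of the other genes that carry the symbol, 4 of 5 rose. Eif2a, which encodes an initiator transfer RNA binding protein apart from the eIF2 complex, read 11.25, 11.77, 11.72 and 11.36 at 72 h, against 10.37, 10.30, 10.36 and 10.11 in naive cells. Its log2 change was 1.24 ± 0.11 (adjusted p = 5.44e-07). Eif2d, whose product can deliver transfer RNA to the ribosome without GTP, rose by 0.92 ± 0.08, and Eif4a3, a helicase of the exon junction complex on spliced messages, rose by 0.53 ± 0.11. The control arrays at 72 h were themselves in pairs: arrays 1 and 4 read 11.15 and 11.22 for Eif4a2 and arrays 2 and 3 read 11.58 and 11.49. The myeloid mean followed the same pairs, at 8.63 and 8.57 on arrays 1 and 4 and 7.91 and 7.92 on arrays 2 and 3.

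**Figure D2:**
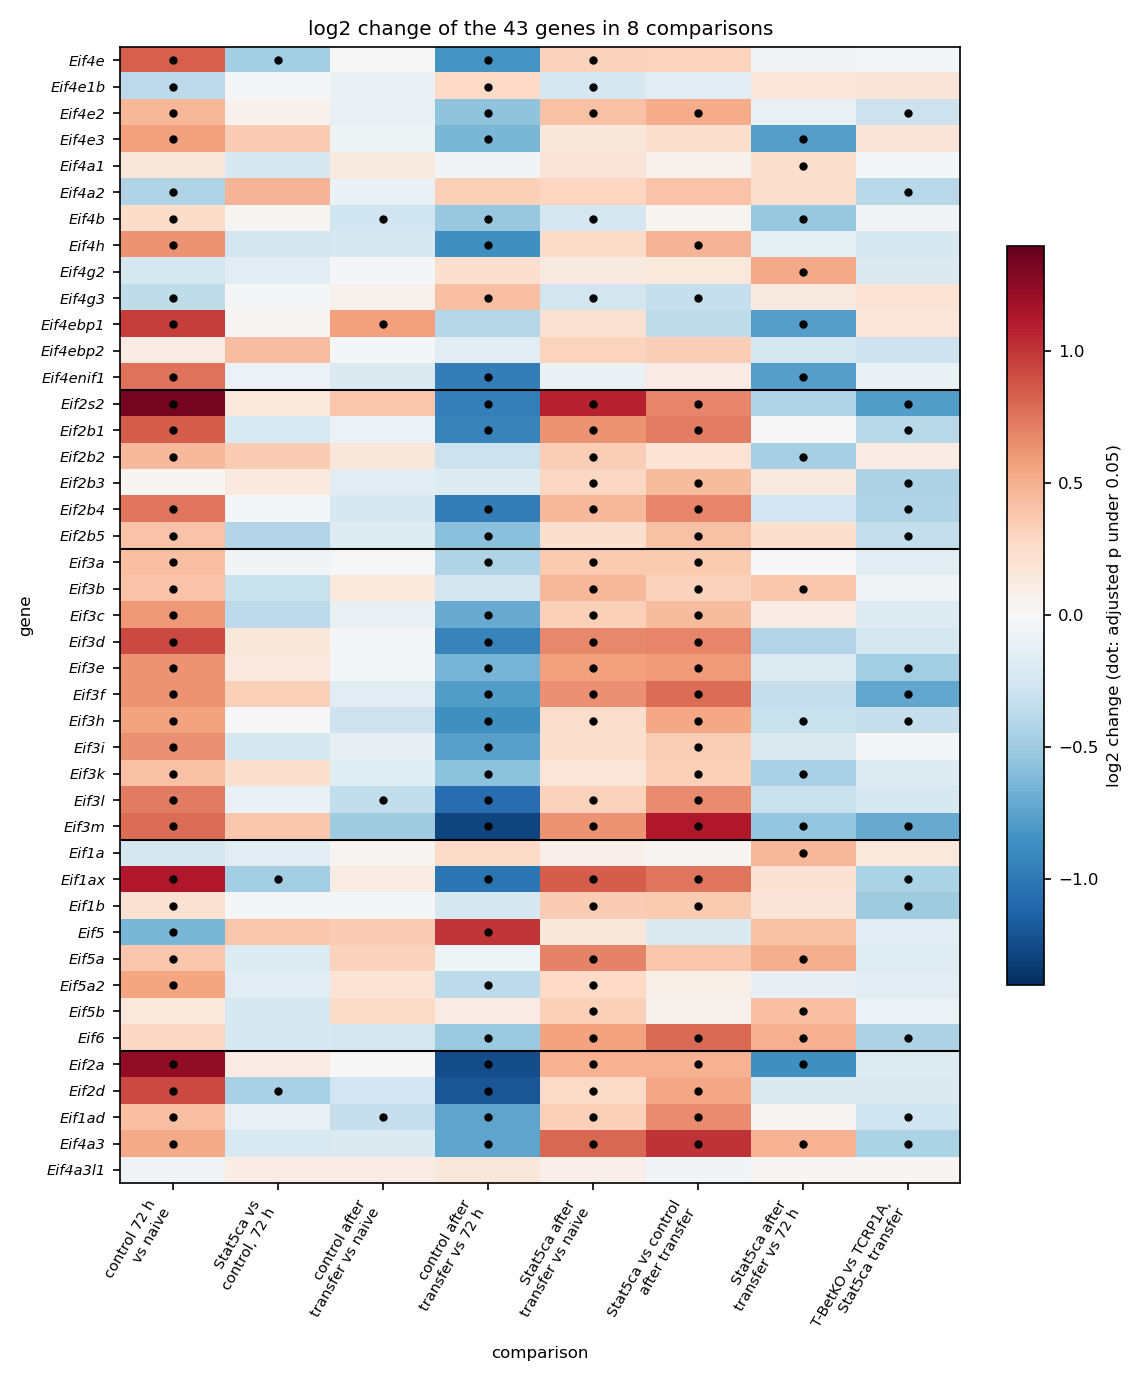
log2 change of each of the 43 genes (down the page, by role: cap-binding, eIF2 and eIF2B, eIF3, eIF1 to eIF6, others) in 8 comparisons, red where higher and blue where lower in the group named before "vs", with a dot where the limma adjusted p is under 0.05. The eIF3 block carries dots in all 11 genes for control cells at 72 h against naive cells and for Stat5ca against control cells after transfer.

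At 72 h, few of these genes passed the test for a difference with Stat5ca. Against control cells at 72 h, 0 of the 43 genes rose and 3 fell, where 2.37% of all genes rose and 3.35% fell, and the median log2 change was -0.03 against 0.04 for all genes. At an unadjusted p under 0.05, for which no share over all genes was taken here or below, 8 were higher and 7 lower. With array weights in the fit 7 of the 43 were called higher and 15 lower, where 4604 of the 19938 genes were called. Without weights 472 of all genes were called higher and 668 lower. The count therefore depends on how the arrays are weighted, for all genes as for these. The 3 genes that fell were Eif1ax (by 0.48 on the log2 scale), Eif4e (by 0.47) and Eif2d (by 0.45). Eif1ax read 10.27 and 10.32 with Stat5ca, against 10.86, 10.68, 10.59 and 10.97 in control cells, without overlap (standard error 0.12, adjusted p = 0.0302). Eif4e read 9.90 and 9.79 with Stat5ca, against 10.27, 10.45, 10.19 and 10.36, also without overlap (adjusted p = 0.0229), but the mean of its probe sets changed by -0.18 and did not pass the test. Of the remaining genes fixed for naming, Eif4a2 changed by 0.47, Eif4ebp2 by 0.43, Eif4a1 by -0.23, Eif6 by -0.22, Eif5a by -0.19 and Eif4ebp1 by 0.02, none past the test. None of the 3 falls was called when Stat5ca array 9 or array 10 was left out, which leaves 1 Stat5ca array at 72 h.

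Control cells recovered from hosts had lower initiation factor levels than control cells at 72 h. Of the 43 genes, 3 rose and 27 fell, where 13.1% of all genes rose and 24.4% fell, and the median log2 change was -0.57 against -0.04 for all genes. Among genes above the background guide, 16.4% rose and 35.2% fell, with a median of -0.11. The eIF3 genes fell in 10 of 11 cases. Eif3m, an eIF3 subunit gene, read 9.66 and 9.51 after transfer, against 10.70, 11.08, 11.09 and 10.58 at 72 h, a log2 change of -1.28 ± 0.17 (adjusted p = 3.28e-05). Eif2a and Eif2d fell by 1.24 and 1.19 on the log2 scale, Eif3l by 1.07 and Eif1ax by 1.02. Of the eIF2 group 4 of 6 fell, led by Eif2b4 (by 0.97), and of the cap-binding group 6 of 13 fell, led by Eif4enif1 (by 0.96), whose product carries eIF4E into the nucleus.

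The 3 genes that rose after control transfer relative to 72 h were Eif5, Eif4g3 and Eif4e1b. Eif5 read 12.13 on the day 18 array and 12.77 on the day 120 array, against 11.67, 11.22, 11.25 and 11.67 at 72 h, a log2 change of 0.997 ± 0.16 (adjusted p = 0.000153). Both transfer arrays lay above the 72 h arrays, but they differed from each other by more than the 72 h arrays did. Eif4g3 rose by 0.42 ± 0.09 and Eif4e1b by 0.28 ± 0.10, but the mean of the Eif4e1b probe sets changed by 0.09 and was not called. Eif4e fell by 0.83 and Eif6 by 0.52 on the log2 scale, whereas Eif4a2 (0.33), Eif4ebp1 (-0.39), Eif4ebp2 (-0.15), Eif4a1 (-0.03) and Eif5a (-0.06) did not pass the test. The marker lists moved with this comparison, with 8 of 11 T-cell genes lower after transfer (median -0.66 over the 11) and 13 of 15 myeloid markers higher. With the myeloid level as a covariate 6 of the 11 eIF3 genes were called lower, and all 11 changes were negative. The count over all genes in that fit is not given here. Eif4g3 (0.29), Eif4e1b (0.32) and Eif6 (-0.63) were not called with that covariate.

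Between control cells after transfer and naive cells, few of these genes passed the test. Against naive cells, 1 of the 43 rose and 3 fell, where 7.94% of all genes rose and 9.81% fell, and the median log2 change was -0.07 against -0.12. Eif4ebp1 rose, with 10.55 and 10.46 after transfer against 9.74, 10.18, 9.58 and 10.23 in naive cells (0.57 ± 0.18, adjusted p = 0.04). Eif3l fell by 0.35 on the log2 scale (adjusted p = 0.0402), Eif1ad by 0.32 and Eif4b, a cofactor of the eIF4A helicase, by 0.27. None of these 4 was called without naive arrays 33 and 35, or with the myeloid level as a covariate. The changes of Eif4e (0.01), Eif4a1 (0.12), Eif4a2 (-0.09), Eif4ebp2 (-0.03), Eif5a (0.32) and Eif6 (-0.23) did not pass the test. In this comparison 10 of 11 T-cell genes were lower and 5 of 15 myeloid markers higher after transfer.

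With Stat5ca, the cells recovered from hosts had higher initiation factor levels than the recovered control cells. Of the 43 genes, 25 rose and 1 fell, where 16.9% of all genes rose and 8.46% fell. The median log2 change was 0.37 against 0.08 for all genes, and among genes above the background guide 25.1% rose and 10.7% fell. All 11 eIF3 genes rose, with changes of 0.32 to 1.12, as did 5 of 6 eIF2 and eIF2B genes, 3 of 8 genes of eIF1, eIF5 and eIF6, 4 of 5 others, and 2 of 13 cap-binding genes.

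Eif3m had the largest rise. It read 10.75, 10.68, 10.78 and 10.61 with Stat5ca, against 9.66 and 9.51 in control cells after transfer, and its log2 change was 1.12 ± 0.17, or 2.17-fold (4 and 2 arrays, adjusted p = 0.000395). The other Eif3m probe set gave 1.09. Eif3f, another eIF3 subunit gene, read 13.07, 13.05, 13.14 and 13.10 with Stat5ca and 12.34 and 12.27 without, a change of 0.79 ± 0.14 (adjusted p = 0.00118). In both genes the Stat5ca arrays lay close together and well above the control arrays.

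Eif4a3 rose 2.01-fold, with 10.15, 10.33, 10.19 and 10.21 on the Stat5ca arrays and 9.26 and 9.16 on the control arrays (log2 change 1.01 ± 0.14, adjusted p = 0.0002). Eif6, whose product keeps the large ribosomal subunit from joining the small one too early and is needed to make it, read 11.71, 11.57, 11.70 and 11.44 with Stat5ca and 10.87 and 10.76 without (0.79 ± 0.15, adjusted p = 0.00133). Eif1ax rose by 0.75 ± 0.12, with 10.40, 10.52, 10.53 and 10.56 against 9.80 and 9.70, and Eif1a changed by 0.04. For Eif4a3, Eif6 and Eif1ax the groups did not overlap. Neither did those of Eif4e, Eif4e1b, Eif4e3, Eif4a2, Eif4g2, Eif4ebp1, Eif4ebp2, Eif2b2, Eif5a, Eif5a2 and Eif5b, which were not called. The share of all genes without overlap was not taken, here or in the other comparisons, so lack of overlap says little by itself. Of the exchange factor genes, Eif2b1 rose by 0.72 ± 0.12 and Eif2b4 by 0.68 ± 0.10, and Eif2s2 rose by 0.68 ± 0.20.

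In the cap-binding group, Eif4e2, which encodes a cap-binding relative of eIF4E known as a repressor of translation, rose by 0.52 ± 0.08 (adjusted p = 0.000582) and Eif4h, a helicase cofactor, by 0.48 ± 0.13. Eif4g3 was the gene that fell, with 11.03, 11.07, 11.17 and 11.04 on the Stat5ca arrays and 11.34 and 11.45 on the control arrays (-0.32 ± 0.09, adjusted p = 0.0183). With the myeloid level as a covariate Eif4g3 changed by -0.26 and was not called. Eif4e (0.31), Eif4a1 (0.05), Eif4a2 (0.39), Eif4ebp1 (-0.36), Eif4ebp2 (0.34) and Eif5a (0.37) did not pass the test. The T-cell genes moved with this comparison, 9 of 11 being higher with Stat5ca (median 0.64 over the 11). All 15 myeloid markers had a lower mean with Stat5ca, with a median log2 change of -2.10, and 3 of them passed the test; the myeloid array means of 9.62 to 10.51 with Stat5ca and 12.12 to 12.25 in control cells did not overlap. With the myeloid level as a covariate 9 of 11 eIF3 genes and 2 of 6 eIF2 genes were called. The count over all genes in that fit is not given here. Leaving out the day 18 or the day 120 control array leaves 1 control array, and all 11 eIF3 changes were positive each time. Fewer of the 43 genes, and fewer of all genes, were then called.

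**Figure D3:**
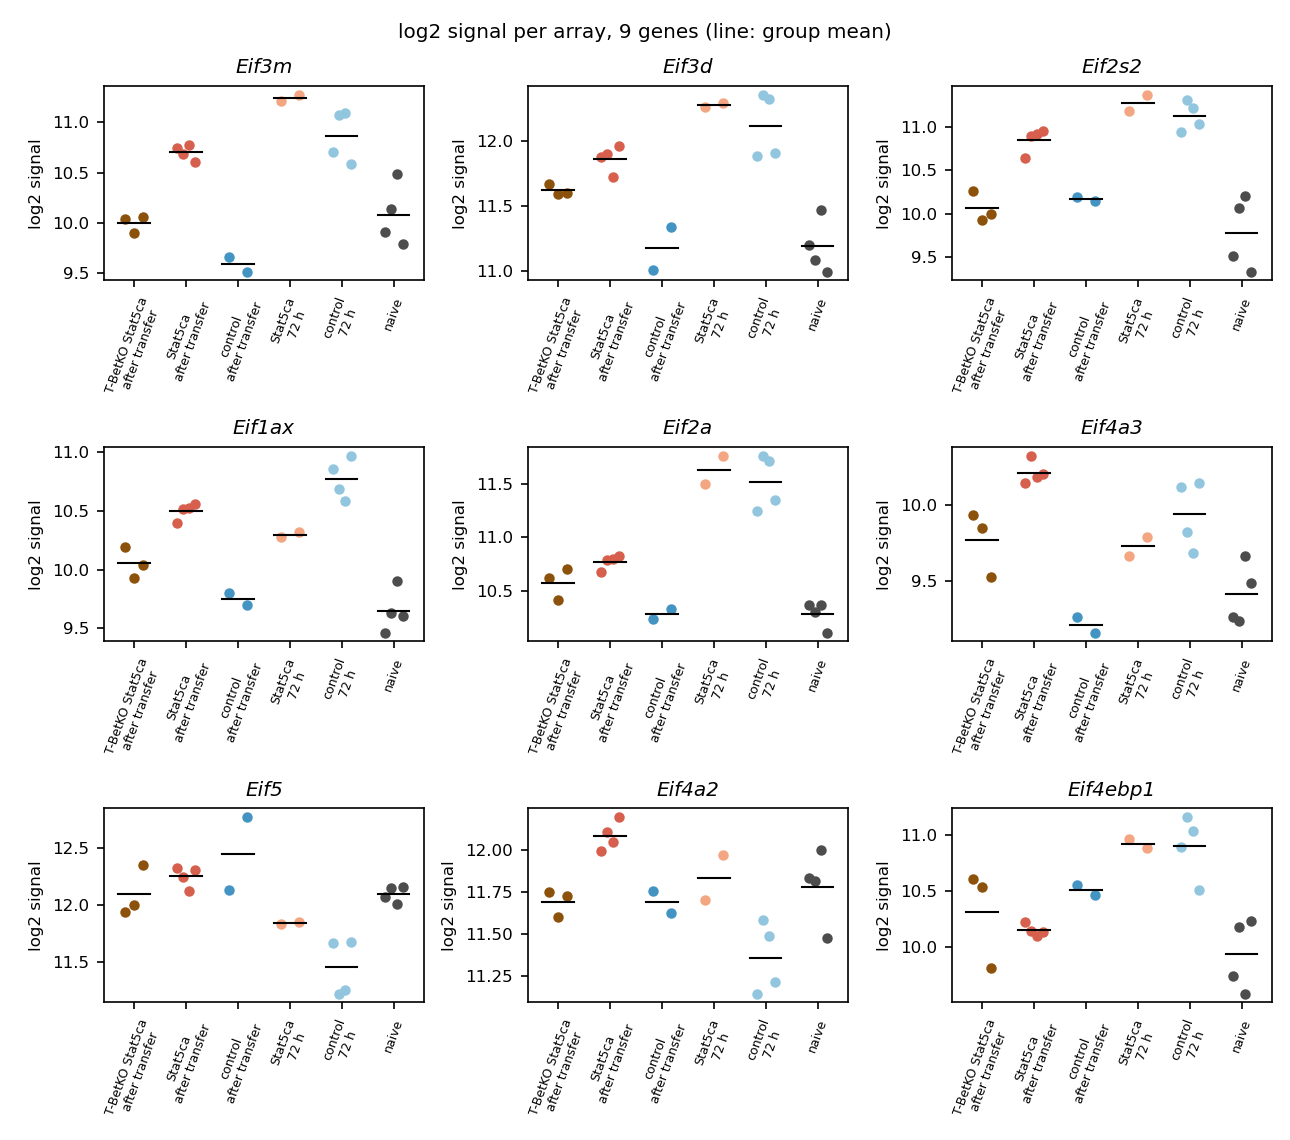
log2 signal on each array of 9 genes in the 6 groups, with a line at each group mean. For Eif3m, Eif3d, Eif1ax and Eif4a3 all Stat5ca transfer arrays stand above both control transfer arrays, and for Eif5 the control transfer arrays read 12.13 and 12.77, above all 72 h arrays.

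Promoter sequence was looked at because these genes moved together. RefSeq promoter records (mouse build GRCm38.p6, 250 bases before to 50 after each gene's start) matched 33 of the 43 genes, and both strands were searched. The E-box CACGTG, which Myc with Max and other helix-loop-helix proteins bind, was in 9 of 33 promoters (27.3%), against 9.50% of the promoters of all genes measured on the arrays. CCGGAAG, a core that ETS family proteins bind, was in 14 (42.4%), against 13.6%. TTCNNNGAA, the spaced palindrome that STAT5 dimers bind, was in 2 (6.06%), against 8.99%. Of the 20 matched genes that rose with Stat5ca after transfer, 5 held the E-box (25.0%), 9 the ETS core (45.0%) and 1 the STAT5 palindrome (5.0%). These shares are near those of all 33, rising or not. The shares over all genes measured include genes under the background guide. A match describes the letters in these windows and shows no binding. The windows below, 5′ to 3′ on the gene's strand, lie upstream of the annotated gene start and show the motif in capitals with 20 bases on each side, for eIF3 genes and Eif4h, which rose with Stat5ca, and for Eif4a1, which has an E-box and was not called.
Eif3f E-box, chr7:108934327-108934372, plus strand, motif from position -68: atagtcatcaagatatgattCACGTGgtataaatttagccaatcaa
Eif3k E-box, chr7:28981907-28981952, minus strand, motif from position -44: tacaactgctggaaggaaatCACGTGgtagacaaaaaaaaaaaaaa
Eif4h E-box, chr5:134639480-134639525, minus strand, motif from position -96: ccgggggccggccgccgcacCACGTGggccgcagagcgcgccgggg
Eif4a1 E-box, chr11:69672587-69672632, minus strand, motif from position -189: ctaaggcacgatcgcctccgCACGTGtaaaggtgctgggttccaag
Eif3m ETS core, chr2:105017056-105017102, minus strand, motif from position -55: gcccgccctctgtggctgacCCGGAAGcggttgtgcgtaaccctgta
Eif3d ETS core, reverse strand of the motif, chr15:77970868-77970914, minus strand, motif from position -70: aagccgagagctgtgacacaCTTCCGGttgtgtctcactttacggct
Eif3c STAT5 palindrome, chr7:126566405-126566453, minus strand, motif from position -67: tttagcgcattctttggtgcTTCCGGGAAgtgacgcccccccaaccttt
In Eif3c the palindrome overlaps an ETS core that begins at position -68. The Eif3f, Eif3k and Eif4h windows share CACGTGG with different flanks, and the log2 changes with Stat5ca after transfer were 0.79 for Eif3f, 0.34 for Eif3k, 0.48 for Eif4h and 0.05 for Eif4a1.

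The Stat5ca effect after transfer was compared with that at 72 h in the same fit. The difference between the effects was positive and called for 18 of the 43 genes and negative and called for 0, where 12.3% of all genes were called positive and 5.48% negative. Its median was 0.45, against 0.01 for all genes, and at an unadjusted p under 0.05, 24 were positive and 2 negative. Among genes above the background guide 18.6% were positive and 6.97% negative. Of the 11 T-cell genes 4 were called positive and 0 negative, with a median of 0.43 over the 11, near that of the 43 genes. The 18 were 7 of 11 eIF3 genes, 3 of 6 eIF2 genes, 3 of 13 cap-binding genes, 2 of 8 of eIF1, eIF5 and eIF6, and 3 of 5 others.

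The largest differences were those of Eif1ax and Eif4a3. Eif1ax was higher by 0.75 with Stat5ca after transfer and lower by 0.48 at 72 h, a difference of 1.23 ± 0.17 (adjusted p = 0.000301). Eif4a3 changed by 1.01 after transfer and -0.22 at 72 h, a difference of 1.22 ± 0.20 (adjusted p = 0.00082). Eif6 differed by 1.01 ± 0.21, Eif2d by 0.99 ± 0.13, Eif2b1 by 0.92 ± 0.18 and Eif3c, a core eIF3 subunit gene, by 0.81 ± 0.18. At 72 h Eif4a3 read 10.12 and 10.15 on control arrays 1 and 4, 9.82 and 9.68 on control arrays 2 and 3, and 9.66 and 9.79 with Stat5ca. In the same order Eif6 read 11.60 and 11.53, 11.18 and 11.03, and 11.07 and 11.15. The 72 h part of the difference for Eif4a3 and Eif6 thus rests mostly on control arrays 1 and 4. Eif4e differed by 0.78 ± 0.16, although its effect after transfer (0.31) was not called on its own, and by 0.35 with adjusted p = 0.0565 for the mean of its probe sets. The differences for Eif5a (0.57), Eif5 (-0.58), Eif4a1 (0.28), Eif4a2 (-0.08), Eif4ebp1 (-0.38) and Eif4ebp2 (-0.09) did not pass the test. Leaving out Stat5ca array 10 at 72 h leaves 1 Stat5ca array there, and fewer of the 43 genes and of all genes were then called.

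**Figure D4:**
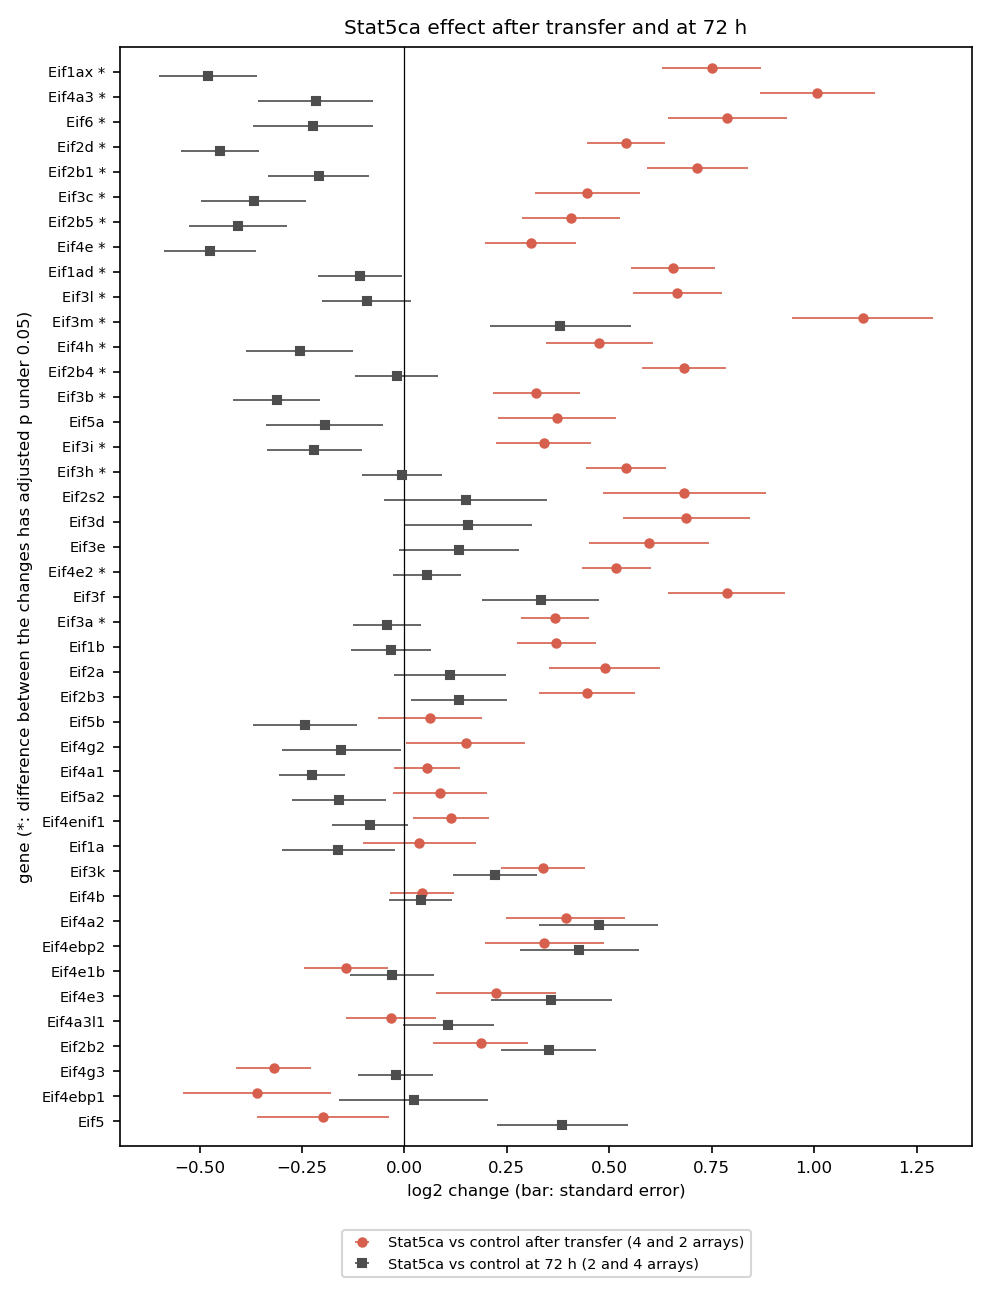
log2 change with Stat5ca after transfer (circles) and at 72 h (squares) for each of the 43 genes, with standard errors, ordered by the difference between them; a star marks a difference with adjusted p under 0.05. Eif1ax (0.75 and -0.48) and Eif4a3 (1.01 and -0.22) stand at the top, and no gene at the bottom carries a star.

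Most of these genes were higher in Stat5ca cells after transfer than in naive cells. Of the 43, 26 rose and 3 fell, where 15.8% of all genes rose and 12.7% fell, with a median log2 change of 0.32 against -0.05. Among genes above the background guide, 23.9% rose and 13.6% fell. The rises covered 9 of 11 eIF3 genes, 5 of 6 eIF2 genes, 6 of 8 of eIF1, eIF5 and eIF6, 4 of 5 others and 2 of 13 cap-binding genes. On the brightest probe sets Eif2s2 rose most, with 10.64, 10.89, 10.92 and 10.96 after transfer and 9.51, 10.07, 10.21 and 9.33 in naive cells (1.07 ± 0.16, adjusted p = 0.000186). Its dimmer probe set averaged 9.19 after transfer and 8.64 in naive cells, a smaller gap. Eif1ax rose by 0.85 ± 0.10, Eif4a3 by 0.81 ± 0.11, Eif5a by 0.70 ± 0.12, Eif3d by 0.67 ± 0.13 and Eif6 by 0.56 ± 0.12. For Eif5a, the hypusine-bearing factor that keeps ribosomes moving, the signals were 12.92, 13.02, 13.06 and 13.13 against 12.26, 12.45, 12.19 and 12.44, without overlap. The other Eif5a probe set averaged 11.25 after transfer and 10.90 in naive cells, also a smaller gap. Eif4e2 rose by 0.41 ± 0.07 and Eif4e by 0.32 ± 0.09, but the mean of the Eif4e probe sets changed by -0.10. The falls were Eif4g3 (by 0.26 on the log2 scale), Eif4b (by 0.23) and Eif4e1b (by 0.23), of which Eif4e1b gave 0.029 as the mean of its probe sets. Eif4a1 (0.18), Eif4a2 (0.30), Eif4ebp1 (0.22) and Eif4ebp2 (0.31) did not pass the test. The myeloid markers gave no call in this comparison, with 0 of 15 higher or lower (median 0.56), and 2 of 11 T-cell genes were lower.

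Against Stat5ca cells at 72 h, the transferred Stat5ca cells showed changes in both directions. Of the 43 genes, 8 rose and 9 fell, where 8.61% of all genes rose and 12.7% fell, with medians of -0.04 and -0.02. Eif2a fell most, with 10.68, 10.78, 10.80 and 10.83 after transfer and 11.50 and 11.76 at 72 h (-0.86 ± 0.14, adjusted p = 0.000351). Eif4ebp1 fell by 0.78, Eif4e3 and Eif4enif1 by 0.77 each, and Eif3m by 0.54 on the log2 scale. Of the eIF3 genes 3 fell and Eif3b rose (0.38 ± 0.11), and of the eIF2 group Eif2b2 fell by 0.47. Eif4g2, which encodes an eIF4G relative that does not bind eIF4E, rose by 0.53 ± 0.15, Eif5a by 0.51, Eif6 and Eif4a3 by 0.49, Eif1a by 0.47 and Eif4a1 by 0.24. Eif4e (-0.04), Eif4a2 (0.25) and Eif4ebp2 (-0.23) did not pass the test. Here 11 of 15 myeloid markers were higher and 4 of 11 T-cell genes lower after transfer. With the myeloid level as a covariate 6 of the 43 genes were called, where 2971 of all genes were. Without that covariate 1717 of all genes were called higher and 2526 lower.

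Stat5ca cells of the T-BetKO group had lower initiation factor levels than TCRP1A Stat5ca cells after transfer. Of the 43 genes, 0 rose and 16 fell, where 7.03% of all genes rose and 13.8% fell, with medians of -0.20 and -0.02. Among genes above the background guide 7.89% rose and 20.8% fell, with a median of -0.09. At an unadjusted p under 0.05, 1 was higher and 19 lower. The falls covered 5 of 6 eIF2 genes, 4 of 11 eIF3 genes, 3 of 8 of eIF1, eIF5 and eIF6, 2 of 13 cap-binding genes and 2 of 5 others. Eif2s2 read 10.26, 9.93 and 10.00 on the T-BetKO arrays, against 10.64, 10.89, 10.92 and 10.96 on the TCRP1A arrays, a log2 change of -0.79 ± 0.17 (3 and 4 arrays, adjusted p = 0.0046).

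Eif3f read 12.36, 12.23 and 12.50 in T-BetKO cells, against 13.07, 13.05, 13.14 and 13.10 in TCRP1A cells (-0.73 ± 0.12, adjusted p = 0.00104). Eif3m read 10.03, 9.90 and 10.06, against 10.75, 10.68, 10.78 and 10.61 (-0.71 ± 0.15). None of the 3 genes overlapped between the groups, and all 3 were named for the size of their fall. Eif1b, a paralog of the start-site selection factor eIF1, fell by 0.50, Eif3e by 0.49, Eif4a3 by 0.45, Eif6 by 0.43 and the helicase Eif4a2 by 0.39 on the log2 scale. Eif4e (-0.02), Eif4a1 (-0.02), Eif4ebp1 (0.17), Eif4ebp2 (-0.29) and Eif5a (-0.17) did not pass the test. This comparison shares its TCRP1A Stat5ca arrays with the comparison against control transfer cells. Of the T-cell genes 1 of 11 was higher and 5 lower in T-BetKO cells (median -0.43 over the 11), and Stat5a itself averaged 10.93 in T-BetKO cells against 11.68 in TCRP1A cells (adjusted p = 0.00033). Strain, stimulus, tissue, labelling protocol, day and the Stat5a level differ with T-bet here and cannot be told apart from it. T-BetKO arrays 39 and 40 had RNA integrity numbers of 7 and 6 and myeloid means of 12.16 and 12.08, and array 41 had 8 and 10.59. With the RNA integrity number as a covariate 6 of the 43 genes were called, where 1379 of all genes were. Of the genes named above, Eif3m (-0.67), Eif6 (-0.54), Eif3e (-0.48) and Eif4a2 (-0.35) were not called with that covariate. Eif4a2 was not called with the myeloid level as a covariate either (-0.29). Without that covariate 1401 of all genes were called higher and 2754 lower. Leaving out arrays 39 and 40 leaves 1 T-BetKO array, and the log2 changes were then -0.85 for Eif2s2, -0.59 for Eif3f and -0.64 for Eif3m.

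Other genes of the pathway were taken from fixed lists. The shares over all genes to read them against are 22.0% higher and 24.9% lower for control cells at 72 h against naive cells, 16.9% higher and 8.46% lower for Stat5ca against control after transfer, and 7.03% higher and 13.8% lower for T-BetKO against TCRP1A Stat5ca cells. Among genes above the background guide, the shares higher and lower were 32.3% and 23.8%, 25.1% and 10.7%, and 7.89% and 20.8%, in the same order. Of 19 measured regulators of initiation, 6 rose and 2 fell in control cells at 72 h against naive cells, 5 rose and 0 fell with Stat5ca against control after transfer, and 0 rose and 7 fell in T-BetKO against TCRP1A Stat5ca cells. The rises at 72 h and with Stat5ca were near the shares among genes above the guide. Paip2, a poly(A)-binding protein inhibitor, rose by 1.03 ± 0.14 at 72 h, and Ddx3x, a helicase used in scanning, fell by 0.46 on the log2 scale. With Stat5ca after transfer the rises included Ncbp2 (0.77 ± 0.18) and Ncbp1 (0.54 ± 0.13), the nuclear cap-binding pair, and Denr (0.66 ± 0.13), a recycling factor. Mtor and Rps6 were not among the calls of these comparisons.

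Of 12 elongation and release genes, 5 rose at 72 h against naive cells, 5 rose and 1 fell with Stat5ca after transfer, and 3 fell in T-BetKO cells, beside the same shares over all genes. The release factor gene Etf1 rose by 0.84 ± 0.11 at 72 h, and Eef1d, an elongation factor exchange subunit, rose by 0.75 ± 0.09 with Stat5ca and fell by 0.54 in T-BetKO cells on the log2 scale. The kinase gene Eef2k, whose product slows elongation, fell by 0.60 with Stat5ca. Of 4 hypusine and polyamine genes, 1 rose and 1 fell at 72 h against naive cells, 2 rose with Stat5ca after transfer and 2 fell in T-BetKO cells. Dhps, the enzyme that begins the hypusine modification of eIF5A, rose by 0.59 ± 0.08 with Stat5ca after transfer (adjusted p = 0.000188). Srm, which makes the spermidine that this modification uses, rose by 0.75 ± 0.13 with Stat5ca after transfer and fell by 0.31 at 72 h against naive cells on the log2 scale. Odc1, the first enzyme of polyamine synthesis, averaged 10.73 at 72 h and 9.87 in naive cells, a rise of 0.86 ± 0.19.

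Of 10 genes of the eIF2 kinases and the stress response, 2 rose and 2 fell at 72 h, 1 rose and 1 fell with Stat5ca after transfer, and 2 rose in T-BetKO cells, counts near the shares over all genes at 72 h. Eif2ak3, the endoplasmic reticulum stress kinase of eIF2, rose by 0.96 ± 0.06 at 72 h, and Ppp1r15a, which recruits the phosphatase that undoes that phosphorylation, fell by 1.34 on the log2 scale. Myc, a transcription factor known to act on many genes of protein synthesis, averaged 12.98 in Stat5ca cells and 11.90 in control cells after transfer (1.08 ± 0.16, adjusted p = 0.000271). At 72 h it averaged 12.75 in Stat5ca cells and 11.97 in control cells (0.78 ± 0.16, adjusted p = 0.0106). In that comparison 0 of the 43 initiation factor genes were called higher, or 7 with array weights. A link between Myc and these genes was not tested. It averaged 12.29 in T-BetKO cells against 12.98 in TCRP1A Stat5ca cells, a fall of 0.70 on the log2 scale with adjusted p = 0.00299. Of the 5 genes of the Myc list, 3 rose in control cells at 72 h against naive cells, namely Mycn, Mxd4 and Mxi1. Myc itself was not called in that comparison (0.16).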

How the data were processed

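The deposited log2 values of 35557 probe sets on 19 arrays were made by the authors with Affymetrix Expression Console, per the submitters' processing notes; its version, summarisation and normalisation settings are not stated. Array medians ran from 7.69 to 7.89, and the number of arrays limits the precision. Probe sets annotated to 1 gene (21789; 1621 have several genes and 12147 none) were reduced to the brightest per gene, giving 19938 genes. Gene positions and promoters are RefSeq GRCm38.p6. limma 3.58.1 (lmFit, eBayes) was fitted to the 16 TCRP1A arrays together, and to all 19 for T-BetKO, with a mean per group. Benjamini-Hochberg adjustment ran over all genes of each of 9 comparisons, and 0.05 was the threshold. On simulated data for Stat5ca against control after transfer (19938 genes, 100 changed at each size), 37% of changes of 0.5 and 85% of changes of 1 were recovered. In the data 3371 genes were called higher and 1687 lower. Since far fewer genes were changed in the simulation, its rates need not hold for the data.

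The genes and lists were chosen with earlier results of these data known. Genes named in every comparison were Eif4e, Eif4a1, Eif4a2, Eif4ebp1, Eif4ebp2, Eif5a and Eif6, with the 5 largest rises and falls and the most changed gene of each role group; a few other genes (Eif1a, Eif5, paralogs and examples) were named after their values were seen. Alternatives were other normalisations, priors, filters, probe set summaries, covariates and left-out arrays. Array numbers are not shared between groups, so nothing was paired.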

Additional observations from a re-analysis of the deposited data

Results flagged for a closer look

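Among 32 of the genes in the 3 groups of 4 arrays (96 checks, of which chance alone gives about 1 in 20), 3 single arrays stood apart by Dixon's criterion. Eif4enif1 was 9.87 on naive array 35 and 9.70 to 9.71 on the other naive arrays. Eif2b4 was 9.00 on the same array and 8.63 to 8.69 on the others. Eif3e was 11.91 on Stat5ca transfer array 11 and 12.06 to 12.08 on the others.

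The Stat5ca effect differed between cells after transfer and cells at 72 h, by the test of the difference, for 7 named genes: by 1.23 for Eif1ax, 1.22 for Eif4a3, 1.01 for Eif6, 0.99 for Eif2d, 0.92 for Eif2b1, 0.81 for Eif3c and 0.78 for Eif4e on the log2 scale.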

How the results depend on the processing

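The counts of called genes for control 72 h against naive, control transfer against control 72 h and Stat5ca transfer against naive stayed within 1.5 times under every alternative run. Stat5ca against control at 72 h gave 3 calls, 22 (7 higher, 15 lower) with array weights and 0 to 8 when 1 array was left out. Control transfer against naive gave 4 calls, 2 after centring on array medians, 0 with only the compared groups fitted, 1 with array weights, 0 with the myeloid covariate, 7 if naive arrays 34 and 36 are dropped, 0 if 33 and 35 are, and 0 to 6 with 1 array left out. Stat5ca against control after transfer gave 26 calls and 14 to 25 with 1 array left out. Stat5ca transfer against Stat5ca 72 h gave 17 calls, 26 with array weights, 6 with the myeloid covariate and 5 to 16 with 1 array left out (5 without Stat5ca 72 h array 10). The difference between the Stat5ca effects gave 18 calls, and 11 to 18 with 1 array left out. T-BetKO against TCRP1A Stat5ca gave 16 calls, 6 with the RNA integrity covariate, 2 without arrays 39 and 40, and 5 to 14 with 1 array left out (5 without array 40). Calls over all genes moved too, to 4604 with array weights in Stat5ca against control at 72 h. In T-BetKO against TCRP1A Stat5ca they moved to 1379 with the RNA integrity covariate. In Stat5ca transfer against Stat5ca 72 h they moved to 2971 with the myeloid covariate. The cause was not tested.

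Small changes turned sign. In control transfer against naive, Eif4e gave -0.011 after quantile normalisation, -0.27 as the mean of probe sets (adjusted p = 0.0387), -0.039 with the RNA integrity covariate, -0.071 without naive arrays 34 and 36, and -0.076 to 0.073 with 1 array left out; Eif4a1 gave -0.016 after quantile normalisation. There Eif4a2 gave 0.017 and Eif4ebp2 0.0082 with array weights, 0.093 and 0.084 when the myeloid level was a covariate, and 0.043 and 0.077 when arrays 33 and 35 were left out; Eif4ebp2 gave -0.12 to 0.055 with 1 array left out. In control 72 h against naive, Eif4ebp2 gave -0.024 after quantile normalisation. In control transfer against control 72 h, Eif5a gave 0.0081 as the mean of probe sets, Eif4ebp2 gave 0.046 with the myeloid covariate, and with 1 array left out Eif5a gave -0.16 to 0.025 and Eif4a1 -0.083 to 0.013. In Stat5ca transfer against naive, the mean of probe sets gave -0.10 for Eif4e and 0.029 for Eif4e1b, and Eif4ebp1 gave -0.059 without arrays 33 and 35. In Stat5ca transfer against Stat5ca 72 h, Eif4e gave 0.074 with the myeloid covariate and -0.10 to 0.015 with 1 array left out. In Stat5ca against control at 72 h, Eif4ebp1 gave -0.11 to 0.11 with 1 array left out. For the difference between the Stat5ca effects, Eif4ebp2 gave 0.12 with the RNA integrity covariate and -0.17 to 0.0001 with 1 array left out, and Eif4a2 -0.21 to 0.055. In T-BetKO against TCRP1A Stat5ca, Eif4e gave 0.059 after quantile normalisation, 0.077 as the mean of probe sets, 0.002 with array weights, 0.0034 with the myeloid covariate and -0.094 to 0.034 with 1 array left out; Eif4a1 gave 0.041 after quantile normalisation, 0.0048 without arrays 39 and 40, and -0.041 to 0.009 with 1 array left out; Eif4ebp1 gave -0.050 with the myeloid covariate and -0.34 without arrays 39 and 40. The mean of the Eif4e probe sets in control transfer against naive was the only one of these called.

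Groups of 2 arrays, the mixed myeloid signal and the design shared by T-bet, strain and labelling limit these results. No paired analysis was possible because the arrays carry no replicate number shared between groups.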
